A study of Rattus norvegicus with 22 samples.

Results

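WIN with cocaine was compared with cocaine alone in RNA of the rat prefrontal cortex, which asks how earlier cannabinoid exposure alters the state after cocaine. The comparison took every gene that reached an FPKM of 1 in 3 or more of the 12 prefrontal cortex RNA libraries, which were 15326 of the 29663 genes in the deposited table. FPKM gives a gene's fragments relative to its length and to the size of the library. The samples came from male Sprague-Dawley rats, with 3 libraries for each of 4 groups: control, WIN, cocaine, and WIN with cocaine. The series title places the cannabinoid exposure in adolescence. Doses, ages, the interval between the drugs and the vehicle of the controls are not stated by the labels used here. The labels do not say whether the 3 libraries of a group are separate animals, so the p-values refer only to the spread among these libraries, and that spread may be technical.

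WIN is the name of a synthetic agonist of the cannabinoid receptors. The main cannabinoid receptor of the brain sits largely on axon terminals, where its activation lowers transmitter release. Cocaine blocks the transporters that clear dopamine, noradrenaline and serotonin from the extracellular space, and the prefrontal cortex receives dopamine input from the midbrain. In bulk tissue, fewer cells of a type and less RNA per cell cannot be told apart. The deposited table names genes by ID only, and 0 of its IDs matched the reference gene table at hand. Pathways, cell types and the markers of the labelled tissue were therefore not examined here. The genes are described by 4 IDs and by classes that the table itself defines: level, length, kind of ID and direction.

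Read numbers recovered from the FPKM steps were 23157374 to 26172419 per library in cocaine and 22107502 to 27103643 in WIN with cocaine. The median tested gene held 487.8 reads on average, and the lowest 5% of genes held under 25.7. At the limit of the filter, 250 genes reached an FPKM of 1 in exactly 3 libraries, with a median level of 0.839, and 333 reached it in exactly 2 and were left out, with a median level of 0.738. Of the tested genes, 13472 were at an FPKM of 1 or more in every library. No tested gene was without reads in all 3 cocaine libraries and present in all 3 libraries of WIN with cocaine, and 1 gene showed the opposite.

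The 6 compared libraries separated along the first principal component of their log2(FPKM + 1) values, but 1 cocaine library stood apart. That component held 34.0% of the variance. On it cocaine lay at -33.23, -3.75 and 3.34, and WIN with cocaine at 9.50, 10.02 and 14.11. Cocaine replicate 1 lay far from all others, and cocaine replicate 3 lay nearer to WIN with cocaine than to its own group. Pairs of libraries from different groups lay about as far apart as pairs within a group, with a median root mean square log2 distance of 0.340, beside 0.360 within cocaine and 0.314 within WIN with cocaine. The distances ran from 0.270 to 0.417 between the groups, from 0.300 to 0.370 among the cocaine libraries and from 0.308 to 0.325 among the libraries of WIN with cocaine.

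**Figure D1:**
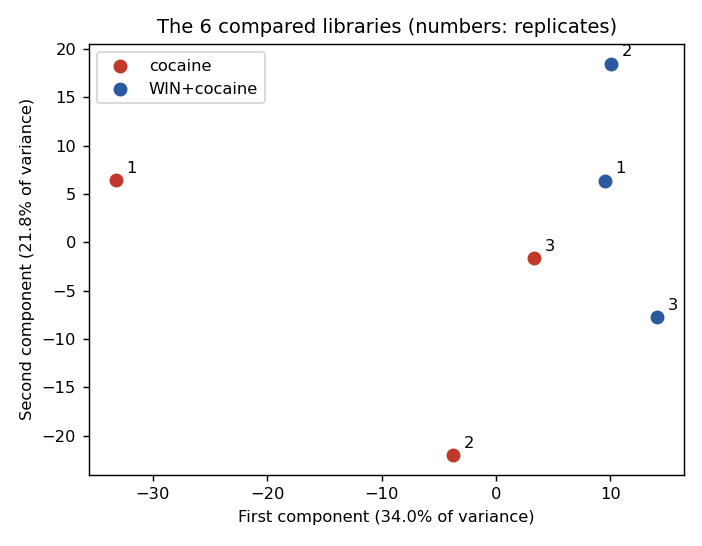
Each point is 1 of the 6 compared libraries, placed by the first and second principal components of log2(FPKM + 1) over 15326 genes; numbers are replicates. Cocaine replicate 1 lies at -33.23 on the first component, and the 3 libraries of WIN with cocaine lie between 9.50 and 14.11.

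No single gene passed the test between WIN with cocaine and cocaine. Limma with Benjamini-Hochberg adjustment called 0 genes at an adjusted p under 0.05, a share of 0%, and 1690 genes shared the smallest adjusted p of 0.468. The count from limma voom on the recovered reads was also 0. An unadjusted p under 0.05 was reached by 1623 genes, or 10.6% of those tested. They comprised 928 genes higher in WIN with cocaine, 6.06% of the tested genes, and 695 lower, 4.53%. These counts moved by over 1.5 times with single libraries. They fell to 606 higher and 404 lower without cocaine replicate 1, and to 627 and 456 without WIN with cocaine replicate 3. They were 558 and 652 without cocaine replicate 2, and 503 and 545 without WIN with cocaine replicate 2, so that lower genes were then the more numerous. Without WIN replicate 3 they were 1442 and 908. Under the limits of 0.01 and 0.001 the counts were 266 genes, 139 of them higher, and 16 genes, 10 of them higher.

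The differences between the groups were small. The median absolute log2 difference over all genes was 0.120, beside 0.0708 between WIN and control, and the central 90% of genes lay between -0.33 and 0.29. The median 95% interval of a gene reached 0.25 to either side of its log2 difference. For 12558 genes, or 81.9%, that interval lay wholly within 1.5-fold in either direction, and for 14622 genes, or 95.4%, it lay within 2-fold. These intervals are not adjusted for the number of genes. On the scale of log2(FPKM + 1), a difference of 2-fold or more thus lay outside the interval of most tested genes. That scale makes the differences of genes at low level smaller than those in FPKM.

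The 3 values of WIN with cocaine did not overlap the 3 of cocaine in 2762 genes, a share of 18%. They lay above in 1735 genes, 11.3%, and below in 1027, 6.7%. Between WIN and control the count was 909 genes, 5.93%, with 488 above, 3.18%, and 421 below, 2.75%. If the 6 libraries of a comparison were interchangeable, a gene would separate in either direction with a probability of 0.1. Genes share their libraries, so no test was made of these shares. Among the 1623 genes at an unadjusted p under 0.05, the groups did not overlap in 751 of the 928 higher and 523 of the 695 lower. That p came from the same libraries, so these counts follow in part from the choice of the genes.

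On the scale of the deposited values more genes were slightly higher in WIN with cocaine, while the larger differences were mostly lower. Of all genes, 54.5% were higher in value, and the median log2 difference was 0.02. That median was -0.0041 after median ratio rescaling of the libraries, so the slight lean depended on the scaling. It was 0.015 with quantile normalization and 0.022 with limma voom. Among genes at an unadjusted p under 0.05, 94.8% of the higher ones and 81.0% of the lower ones differed by less than 1.5-fold. At 1.5-fold or more there were 48 higher genes, 0.313% of those tested, and 132 lower genes, 0.861%. Among genes at an FPKM of 1 or more in all 12 libraries these counts were 30 and 94. At 2-fold or more and an unadjusted p under 0.05 there were 12 higher and 41 lower. With no limit on p, 91 genes lay 1.5-fold or more above cocaine and 229 below. Folds refer to log2(FPKM + 1), so they are too small for genes of low level.

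At an unadjusted p under 0.05 the lean to higher genes turned with median ratio rescaling. It also turned without cocaine replicate 2 and without WIN with cocaine replicate 2. The lean held in 21 of 24 alternatives. Those included quantile normalization, with 921 higher and 760 lower genes, and limma voom, with 916 and 699. After median ratio rescaling of the libraries, 703 genes were higher and 884 lower at an unadjusted p under 0.05, and the groups did not overlap in 1301 higher and 1378 lower genes. Under that scaling 41 genes stood 1.5-fold or more above cocaine and 146 below. The lower genes were more numerous than the higher ones at 1.5-fold in each of 24 alternatives. The excess was smaller with a pseudocount of 0.1, at 124 higher and 197 lower, and with limma voom, at 117 and 194.

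Cocaine replicate 1 carried part of the larger decreases. It held the highest of the 6 values in 87 of the 132 genes that were at least 1.5-fold lower, beside 25 for cocaine replicate 2 and 20 for cocaine replicate 3. WIN with cocaine replicate 1 held the lowest value in 77 of them. In genes chosen as lower, the highest value mostly falls to a cocaine library by that choice. Among the 695 lower genes cocaine replicate 1 was highest in 385 and WIN with cocaine replicate 1 lowest in 201. Over all 15326 tested genes the counts were 3126 and 2026. Without cocaine replicate 1 the counts at 1.5-fold were 44 higher and 77 lower. They were 60 and 210 without cocaine replicate 2, and 69 and 274 without cocaine replicate 3. The 132 genes had a median level of 4.67 FPKM and a median length of 1246 bp, and 3 of them had no Ensembl ID. The 48 higher genes were shorter and lower in level, at medians of 749 bp and 3.16 FPKM, beside 1922 bp and 9.76 FPKM over all tested genes. One of the lower genes reached a mean level of 1059 FPKM, while no gene among the 48 exceeded 18.6.

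**Figure D2:**
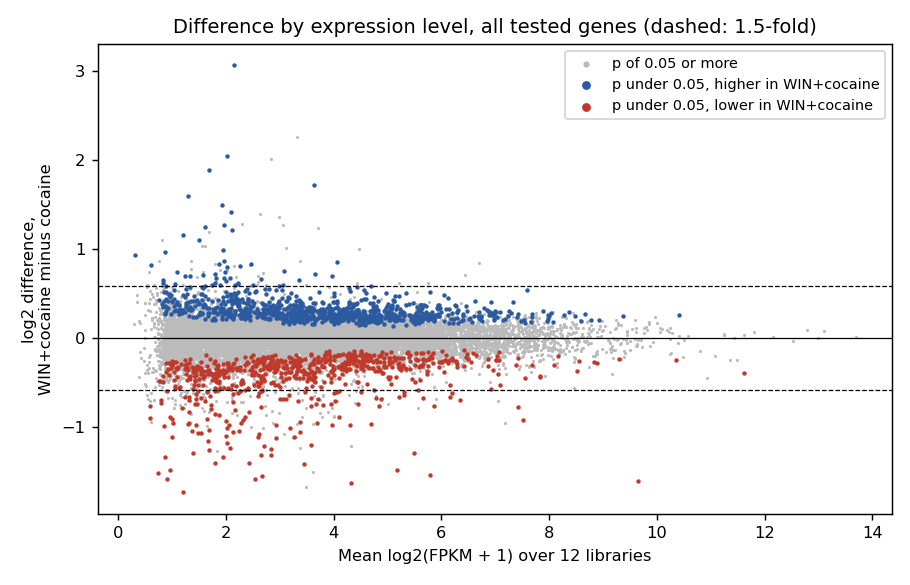
Each point is 1 of 15326 genes, with the mean log2(FPKM + 1) over 12 libraries on the horizontal axis and the log2 difference of WIN with cocaine from cocaine on the vertical axis; coloured genes have an unadjusted limma p under 0.05 and dashed lines mark 1.5-fold. Beyond the dashed lines the coloured genes are 48 above and 132 below.

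Leading differences are shown by 4 Ensembl IDs, the 2 of smallest p per direction at a mean level of 1 FPKM or more. Both higher genes were of modest level, and their highest group mean was that of WIN with cocaine. ENSRNOG00000015860, of 2701 bp, had FPKM values of 3.47, 3.96 and 3.59 in cocaine and 6.61, 6.35 and 5.20 in WIN with cocaine. The 2 groups did not overlap, and the lowest value of WIN with cocaine stood on 363 reads. Its log2 difference was 0.59 with an SE of 0.10 and a 95% interval from 0.36 to 0.81, an unadjusted limma p of 0.000105 and an adjusted p of 0.468. In control it had 4.66, 4.30 and 3.93, and in WIN 5.32, 4.58 and 4.59. WIN replicate 1 thus lay above the lowest library of WIN with cocaine.

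ENSRNOG00000025110, of 4100 bp, had 4.14, 4.71 and 4.03 FPKM in cocaine and 8.57, 6.96 and 6.62 in WIN with cocaine. Its 3 values in WIN with cocaine were the highest of all 12 libraries. Control had 4.68, 5.86 and 4.63, and WIN had 4.63, 5.39 and 4.59, so the other 3 groups overlapped. The log2 difference from cocaine was 0.66 with an SE of 0.12 and a 95% interval from 0.41 to 0.91, an unadjusted limma p of 0.000109 and an adjusted p of 0.468.

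Both leading lower genes were high in cocaine alone and near the control level in WIN with cocaine. Being higher in cocaine than in WIN with cocaine follows from their choice. For ENSRNOG00000023242 the high cocaine values also follow in part from the filter, so the pair is no support for a common pattern. ENSRNOG00000018445, of 1933 bp, had 54.62, 56.20 and 43.78 FPKM in cocaine and 33.69, 33.70 and 32.50 in WIN with cocaine. These 3 values differed little among themselves, with a mean of 33.3 ± 0.687 (SD, n = 3), and rested on 1440 to 1765 reads. The log2 difference was -0.61 with an SE of 0.12 and a 95% interval from -0.88 to -0.34, an unadjusted limma p of 0.000375 and an adjusted p of 0.468. Control had 34.68, 30.44 and 36.03 FPKM, which enclosed the values of WIN with cocaine. In WIN without cocaine it had 31.40, 38.67 and 43.93, and WIN replicate 3 lay slightly above the lowest cocaine library.

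ENSRNOG00000023242, of 756 bp, was a low gene with 5.37, 2.49 and 2.63 FPKM in cocaine and 0.634, 0.299 and 0.716 in WIN with cocaine. Outside cocaine only WIN replicate 1 reached an FPKM of 1, at 1.19. The gene thus passed the filter on low values only with the help of the cocaine libraries, where it was high. Its separation partly follows from the filter, and its p supports nothing. The FPKM values of cocaine and WIN with cocaine correspond to 94, 44 and 52 reads against 13, 5 and 14. The groups did not overlap, with a log2 difference of -1.49, an SE of 0.24 and a 95% interval from -2.02 to -0.96. The unadjusted limma p was 5.61e-05 and the adjusted p 0.468. Its size varied with the settings, at -1.88 for a pseudocount of 0.5, -2.44 for 0.1, -2.56 in limma voom and -1.21 without cocaine replicate 1. Control held 4 to 8 reads and WIN 6 to 25, so the 3 groups other than cocaine overlapped.

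**Figure D3:**
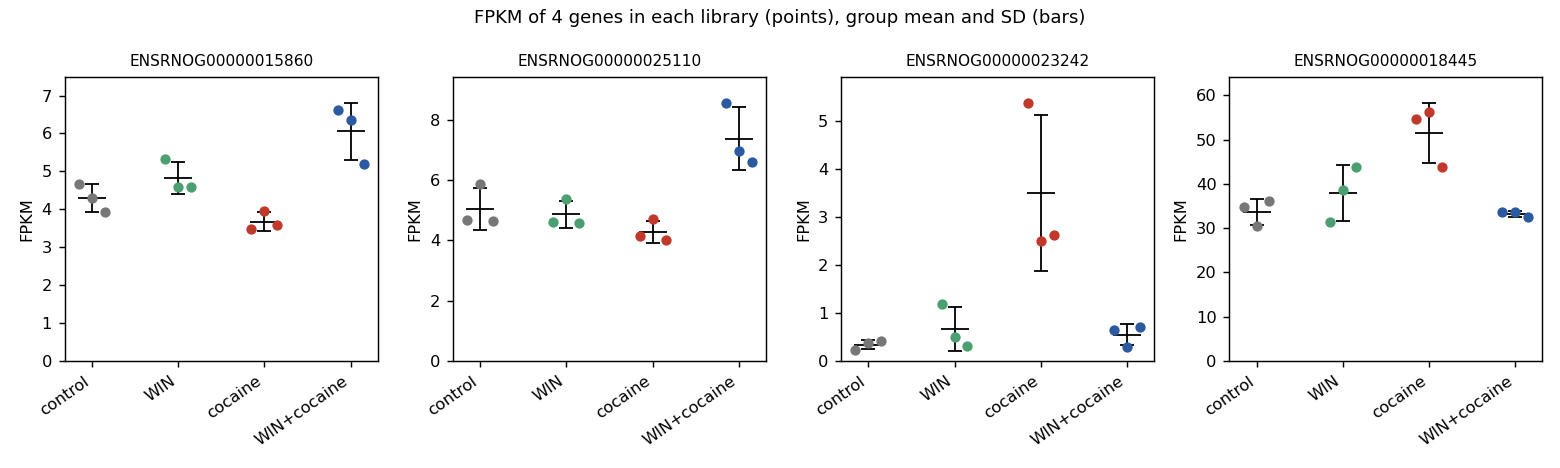
FPKM of 4 genes in each of the 12 libraries (points, in replicate order from left to right), with the mean and SD of each group of 3 (bars); each panel has its own scale from 0. In the 2 panels on the left WIN with cocaine lies above cocaine, and in the 2 on the right it lies below cocaine and near control. The genes were chosen by p, and ENSRNOG00000023242 passed the filter only with the help of the cocaine libraries.

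The choice of these 4 genes by p favours groups that lie apart. The other comparisons of the cocaine and the WIN with cocaine libraries share libraries with it, and their values are given side by side. From control to cocaine the log2 differences were -0.18 and -0.19 for the 2 higher genes, 0.59 for ENSRNOG00000018445 and 1.69 for ENSRNOG00000023242. From control to WIN with cocaine they were 0.41 for ENSRNOG00000015860 and 0.47 for ENSRNOG00000025110. The corresponding values were -0.01 for ENSRNOG00000018445 and 0.20 for ENSRNOG00000023242.

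Another Ensembl gene, the third by p among those higher in WIN with cocaine, was low in cocaine and even in WIN with cocaine. It had 0.755, 0.374 and 0.334 FPKM in cocaine, or 14, 7 and 7 reads. In WIN with cocaine it had 4.65, 4.40 and 4.34 FPKM, or 101, 78 and 90 reads. Its log2 difference was 1.89 with an SE of 0.34 and an adjusted p of 0.468 in limma. This gene was called with only the 6 compared libraries in the fit, at an adjusted p of 0.0238, and without WIN replicate 3, at 0.0299. The level varied widely where WIN with cocaine was even, with 6.31, 2.87 and 3.95 FPKM in control and 2.30, 2.67 and 0.303 in WIN. It was singled out after its values were seen.

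Long genes at an unadjusted p under 0.05 were more often higher than lower in WIN with cocaine. The size of this lean varied with single libraries, and it turned without WIN with cocaine replicate 2. In the longest of 5 equal length classes, from 3360 bp upward, 206 genes were higher and 104 lower, or 6.72% and 3.39%. In the shortest class, up to 1036 bp, 152 were higher and 165 lower, or 4.96% and 5.38%. The shares over all genes were 6.06% and 4.53%. After median ratio rescaling the longest class had 145 higher and 131 lower. The counts there were 88 and 98 without WIN with cocaine replicate 2, which turned the lean, 92 and 71 without WIN with cocaine replicate 3, and 87 and 70 without cocaine replicate 1. They were 115 and 83 without cocaine replicate 2, and 330 and 169 without WIN replicate 3. Without cocaine replicate 3 they were 259 and 136, and without WIN with cocaine replicate 1 they were 279 and 107. Quantile normalization gave 201 and 117 in the longest class, and limma voom gave 270 and 133. The shortest class turned to 155 higher and 110 lower without cocaine replicate 1, to the same counts without WIN with cocaine replicate 3, to 119 and 115 without WIN with cocaine replicate 2, and to 216 and 182 without WIN replicate 3. Log2 difference and length had a Spearman's rho of 0.0624 over genes, which are no replicates. The shortest class held 30 of the 48 genes at least 1.5-fold higher and 54 of the 132 lower, and its median SE was the widest of the 5 classes at 0.15.

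Library by library, the length pattern did not separate the groups. For each library the median deviation of the shortest class was subtracted from that of the longest. This contrast was -0.0896, -0.0048 and -0.0076 in cocaine and -0.0918, 0.0293 and 0.0874 in WIN with cocaine. The lowest and the highest value both came from WIN with cocaine, so the groups overlapped. The mean was -0.034 ± 0.0482 in cocaine and 0.0083 ± 0.0914 in WIN with cocaine (SD, n = 3), and the exact permutation test gave a two-sided p of 0.5. With 3 libraries per group the smallest p this test allows is 0.1.

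By level, the lowest of 5 equal classes held the fewest genes at an unadjusted p under 0.05. There 114 genes, 3.72%, were higher and 125, 4.08%, lower. The median SE of that class was the widest of the 5, at 0.154, beside 0.0938 in the highest class. In the fourth class, with a median level of 21.0 FPKM, 230 genes, 7.50%, were higher and 142, 4.63%, lower. The highest class had 196 higher genes, 6.4%, and 123 lower genes, 4.01%, near the 6.06% and 4.53% of all tested genes. None of its genes was at least 1.5-fold higher at an unadjusted p under 0.05, whereas 15 were at least 1.5-fold lower. Over all tested genes these were 48, 0.313%, and 132, 0.861%. The level classes were not examined under other scalings or with single libraries left out.

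Among genes without an Ensembl ID, fewer were lower than higher in WIN with cocaine at an unadjusted p under 0.05, and none passed the adjusted test. The table gives 1278 of the tested genes an ID without the Ensembl prefix, and what these IDs stand for was not examined. Of these, 91 were higher and 16 lower at an unadjusted p under 0.05, or 7.12% and 1.25%. The 14048 genes with an Ensembl ID had 837 higher and 679 lower, or 5.96% and 4.83%. The groups did not overlap in 156 higher and 26 lower genes of the first kind, or 12.2% and 2.03%, beside 11.2% and 7.13% of the second. After median ratio rescaling, 80 genes without an Ensembl ID were higher and 22 lower. Genes without an Ensembl ID had a lower median level, at 1.978 FPKM against 10.97. Lower genes were few in each length class of these genes, from 7 of 301 in the shortest to 3 of 376 in the longest.

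The shift of this class was uneven among the libraries. The median deviation of genes without an Ensembl ID, less that of genes with one, was -0.0406, -0.0523 and 0.0032 in cocaine. In WIN with cocaine it was 0.0582, -0.0227 and 0.0025. The groups overlapped, with means of -0.0299 ± 0.0293 and 0.0127 ± 0.0414 (SD, n = 3) and a two-sided p of 0.3 in the exact permutation test. Without WIN with cocaine replicate 1 the counts were 63 higher and 32 lower, and without cocaine replicate 2 they were 53 and 12.

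**Figure D4:**
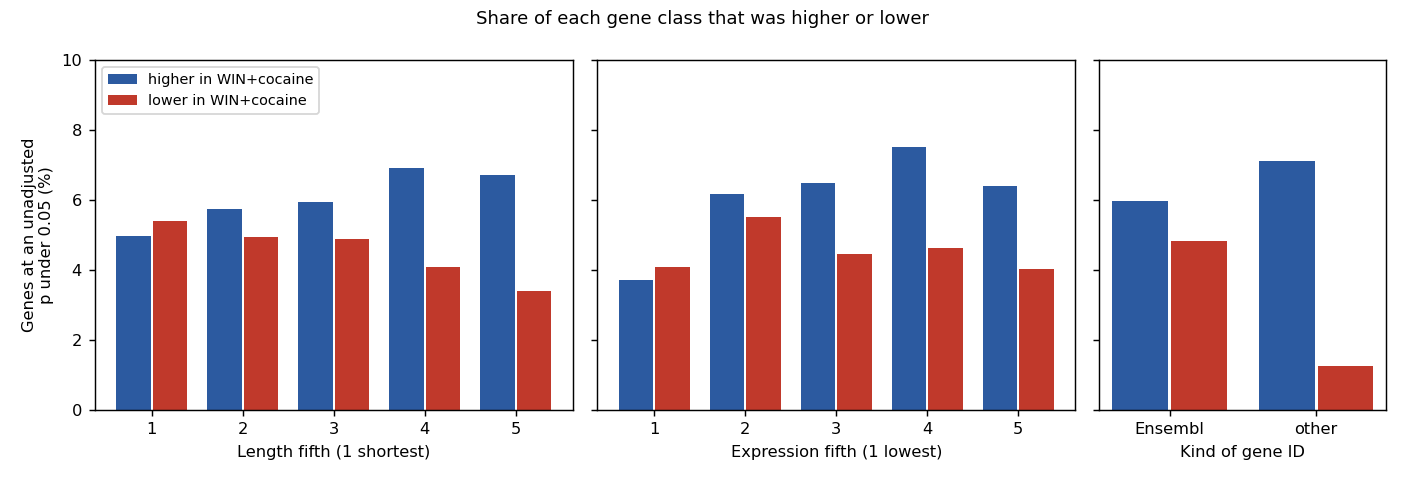
Bars give the percentage of genes in each class that had an unadjusted limma p under 0.05 and were higher (blue) or lower (red) in WIN with cocaine, for 5 length classes, 5 level classes and the kind of gene ID. Higher genes are 6.72% and lower genes 3.39% of the longest class (88 against 98 genes without WIN with cocaine replicate 2), and 7.12% and 1.25% of the genes without an Ensembl ID.

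The WIN difference after cocaine was set against the WIN difference without cocaine, from control to WIN, which shares no library with it. In the test of the difference between both, limma called 0 genes at an adjusted p under 0.05, a share of 0%, with 0.539 as the smallest value, and limma voom called 0. An unadjusted p under 0.05 was reached there by 1382 genes, 9.02%, of which 810, 5.29%, were positive and 572, 3.73%, negative. They fell to 308 positive and 288 negative without control replicate 2, to 410 and 379 without WIN replicate 3, to 513 and 344 without WIN with cocaine replicate 3, and to 520 and 379 without cocaine replicate 1. They numbered 1161 and 901 without WIN replicate 1. The lean turned to 648 positive and 711 negative after median ratio rescaling, and to 487 and 542 without WIN with cocaine replicate 2. It stayed positive with quantile normalization, at 873 and 609, and with limma voom, at 819 and 517. In limma on log2(FPKM + 1), 107 genes, 0.698%, were positive and 145 genes, 0.946%, negative at 1.5-fold or more and that p. Between WIN and control, limma and limma voom called 0 genes, with 0.642 as the smallest adjusted p in limma. There 238 genes, 1.55%, had an unadjusted p under 0.05, with 112, 0.731%, higher and 126, 0.822%, lower. At 1.5-fold or more these were 25 genes, 0.163%, and 32 genes, 0.209%. The count of 238 also moved with single libraries. Removal of control replicate 2 lowered this count to 148, and limma then called 1 gene between WIN and control. Removal of WIN replicate 1 raised the count to 478, and removal of WIN replicate 3 raised it to 409. The 2 WIN differences had 39 genes at an unadjusted p under 0.05 in common, which is 16.4% of the 238 and 2.40% of the 1623, and 15 of them had the same direction.

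The share of genes with the same sign in the WIN differences with and without cocaine moved most, among the 12 libraries left out in turn, without WIN replicate 3. Over all tested genes 36.0% had the same sign in both, and without WIN replicate 3 the share was 54.8%. Of the 928 higher genes 24.2% had the same sign, and 58.7% without that library. Of the 695 lower genes the shares were 24.2% and 51.4%. WIN replicate 3 had the lowest of the 12 library weights, at 0.296. Leaving out any other library gave shares over all genes from 30.0% without WIN replicate 1 to 43.7% without control replicate 2. The 132 genes at least 1.5-fold lower moved less. Of these 38, or 28.8%, were also lower in WIN than in control, and 46, or 34.8%, without WIN replicate 3. Among the 48 at least 1.5-fold higher, 20 were also higher in WIN, and 23 without that library. No test was made of these shares, since genes of a library share its total and its preparation.

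**Figure D5:**
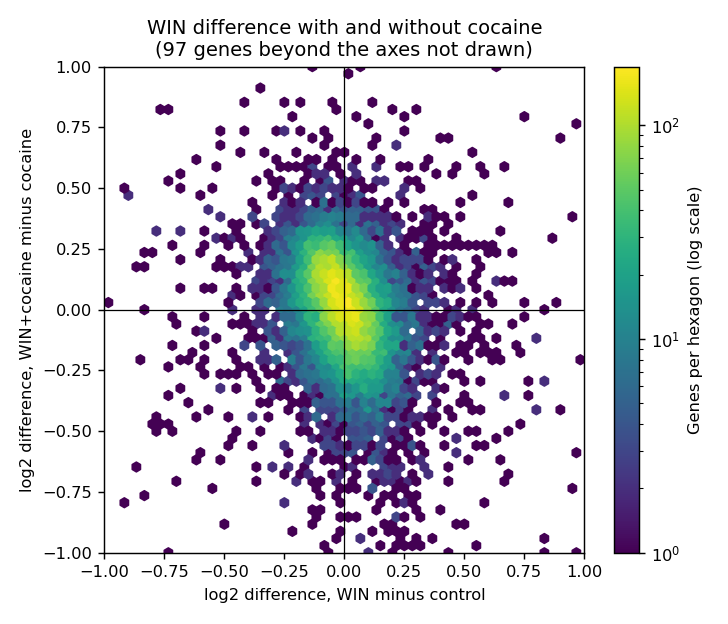
Genes are binned by their log2 difference between WIN and control (horizontal) and between WIN with cocaine and cocaine (vertical), with the number of genes per hexagon on a log colour scale; 97 genes beyond a log2 difference of 1 are not drawn. Of all tested genes 36.0% have the same sign in both, and 54.8% without WIN replicate 3.

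Among the 4 IDs, the difference of differences had the direction of the change after cocaine. This comparison enters it with the same sign, so the direction follows from the choice. It was 0.45 with an SE of 0.15 for ENSRNOG00000015860 and 0.70 with an SE of 0.16 for ENSRNOG00000025110. It was -1.78 with an SE of 0.34 for ENSRNOG00000023242 and -0.77 with an SE of 0.17 for ENSRNOG00000018445. The adjusted p was 0.539 in limma for each. Between WIN and control alone the log2 differences were 0.14, -0.04, 0.29 and 0.16 in that order, with adjusted p of 0.999 in limma for each. WIN and control thus differed by less than 2 SE in each of these genes.

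The spread between replicates was close in both groups. The median SD over genes was 0.129 in cocaine and 0.118 in WIN with cocaine on the log2 scale, and 46.0% of the genes varied more in WIN with cocaine.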

How the data were processed

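RNA was measured in 12 prefrontal cortex libraries, 3 per group, with groups and replicate numbers from the sample titles. The authors deposited FPKM values per gene and library. The kit was stranded, per the labels' protocols. The submitters' processing notes list DESeq, HTSeq and HISAT2 without versions. For build, annotation and strand setting nothing is stated in the labels. How reads of overlapping genes or close paralogs were counted is thus not known.

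Within a gene the FPKM values were whole multiples of 1 step after 1 factor per library, which gave back whole reads for all 24197 genes with a value. Implied lengths were within 0.03 bp of a whole number in 99.98% of the 11605 genes that exceeded 200 reads, beside 6.10% with a shifted scale.

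The test was limma 3.58.1 (R 4.3.3) of log2(FPKM + 1) values, with 4 group means over 12 libraries, a trended prior and Benjamini-Hochberg adjustment over 15326 genes. The fit was tested on simulated data. The alternatives were other pseudocounts, filters, scalings, weights, a replicate block, voom and each library left out. The members, classes and tests were chosen with earlier results of these data known. The named IDs are the 2 per direction with the smallest p at a mean FPKM of at least 1, because the IDs could not be paired with symbols. For that reason the 31 gene lists by symbol were not analysed here, nor were the 6 nucleus accumbens libraries and the 4 ATAC libraries.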

Additional observations from a re-analysis of the deposited data

How the results depend on the processing

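The lowest 5% of tested genes held under 25.7 reads on average, which limits what could be detected there. The counts at 1.5-fold, the counts of genes without an Ensembl ID, the length and same-sign checks and the fit without both WIN replicate 3 and cocaine replicate 1 were chosen after seeing the data. WIN with cocaine against cocaine called 0 genes in 21 of 24 alternatives, 1 where the fit held only the 6 compared libraries, and 0 to 1 when leaving out a replicate (1 each for WIN replicate 3 and control replicate 3). The last gene had 1 control library far below the others. At an unadjusted p under 0.05 there were between 1010 genes (cocaine replicate 1 left out) and 2350 (WIN replicate 3 left out), with 1048 for WIN+cocaine replicate 2, and the share higher from 44.3% after median ratio rescaling to 63.1%. The share was 46.1% with cocaine replicate 2 left out and 48.0% with WIN+cocaine replicate 2 left out.

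The count of genes without overlap ran from 3918 to 5271 over the left-out replicates, since 2 values overlap 3 less readily. Genes at least 1.5-fold higher numbered 124 with a pseudocount of 0.1, 75 with 0.5, 117 with limma voom, 30 with an FPKM of 1 in all 12 libraries, and 44 to 71 over the left-out replicates. Genes at least 1.5-fold lower numbered 94 with an FPKM of 1 in all 12 libraries, 83 with library weights and 73 without both named libraries. They numbered 77 to 274 over the left-out replicates, with 210 without cocaine replicate 2. Genes without an Ensembl ID numbered 189 higher and 54 lower with no filter, where more genes were tested, and 53 to 118 higher and 12 to 32 lower over the left-out replicates.

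The test against the WIN difference without cocaine called 0 to 1 gene over the left-out replicates, with 1 without control replicate 1 and 1 without control replicate 2, and 1 without both named libraries. Genes at an unadjusted p under 0.05 numbered between 596 (control replicate 2 left out) and 2062 (WIN replicate 1 left out), with 789 for WIN replicate 3, 857 for WIN+cocaine replicate 3 and 899 for cocaine replicate 1, and was 570 without both named libraries. For these shifts the cause was not tested, except where stated. The 4 IDs kept their direction in every alternative that tested them, which adds no support since they were chosen here; adjusted p in limma ran from 0.228 to 0.686.

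A replicate block in the fit left 0 genes called, and 1451 were at an unadjusted p under 0.05, 784 higher and 667 lower. Deviations of cocaine and WIN with cocaine libraries of the same number correlated at 0.0217, -0.053 and -0.0128, and 4 of the 12 libraries were closest to one of their own number, so the numbers gave little sign of pairing. The block changed no call.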
